A study of Homo sapiens with 6 samples.

Results

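The genes described here build, fold and inspect proteins in the endoplasmic reticulum (ER). They were 38 of the 20030 genes in the deposited count table, found by gene symbol, and all 38 were present. They were sorted by role into 11 chaperones and their cofactors, 4 protein disulfide isomerases, 4 stress sensor genes (counting XBP1), 7 genes of ER-associated degradation and 12 genes of translocation and signal cleavage. mRNA was sequenced from HepG2 cells, an established human hepatoblastoma-derived liver line, in 3 libraries with a control shRNA, called sh-ctrl, and in 3 with KIF11 knocked down by shRNA, called sh-KIF11. Both groups received their shRNA by lentivirus from the pLKO.1 vector and were selected with puromycin, so the viral vector and the drug were common to all 6 libraries. A single KIF11 shRNA was used, and its effects on other transcripts cannot be told apart from those of losing KIF11. KIF11 encodes a mitotic kinesin motor that pushes the spindle poles apart.

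Proteins destined for secretion or for membranes enter the ER through the SEC61 channel, lose their signal peptide to the signal peptidase complex, and fold with the help of chaperones and disulfide isomerases. Proteins that fail to fold are pulled back to the cytosol and degraded. When unfolded proteins build up, ATF6, IRE1 (encoded by ERN1) and PERK (encoded by EIF2AK3) start the unfolded protein response. ATF6 and the spliced form of XBP1 then switch on chaperone and degradation genes, while PERK slows protein synthesis and raises ATF4. Hepatocytes secrete most plasma proteins and depend heavily on this machinery. Gene counts give the amount of XBP1 mRNA but do not separate its spliced from its unspliced form, so they do not measure IRE1 activity.

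A shared regulatory sequence of these genes is the ER stress element, ERSE, which holds a CCAAT box and a CCACG core 9 bases apart, and its variant ERSE-II, in which 1 base separates the 2 parts. Exact matches to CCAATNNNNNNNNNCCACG (ERSE) and ATTGGNCCACG (ERSE-II) were searched on both strands of RefSeq promoters (GRCh38.p14) running from 250 bases before to 50 bases after each start. The promoters of 34 of the 38 genes were present in that set, and PDIA3, DERL1, DERL3 and SPCS1 were not matched. The 6 stretches shown cover the best-known chaperone gene, the transcription factor of the pathway and 4 further genes that were lower in sh-KIF11. Each reads 5′ to 3′ on the strand of its gene, and capitals mark the 2 parts of each match.
HSPA5, chr9:125241371-125241429, minus strand: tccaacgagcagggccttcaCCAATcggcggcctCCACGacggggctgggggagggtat
XBP1, chr22:28800583-28800641, minus strand: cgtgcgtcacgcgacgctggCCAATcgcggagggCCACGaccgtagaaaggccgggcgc
CALR, chr19:12938364-12938422, plus strand: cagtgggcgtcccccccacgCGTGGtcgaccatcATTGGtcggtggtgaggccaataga
SDF2L1, chr22:21642094-21642144, plus strand: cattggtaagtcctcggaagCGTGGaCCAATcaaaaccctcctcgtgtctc
HYOU1, chr11:119057254-119057410, minus strand: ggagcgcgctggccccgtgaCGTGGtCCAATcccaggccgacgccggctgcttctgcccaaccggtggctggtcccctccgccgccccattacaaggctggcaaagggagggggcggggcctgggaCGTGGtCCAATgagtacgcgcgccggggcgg
HERPUD1, chr16:56932005-56932055, plus strand: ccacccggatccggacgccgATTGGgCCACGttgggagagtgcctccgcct
HYOU1 held 2 copies of ERSE-II in reverse orientation, beginning 185 and 79 bases before its start. HSP90B1 carried 2 copies of ERSE, 194 and 89 bases before the start, and CANX, CRELD2 and PDIA6 carried 1 ERSE each.

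**Figure D1:**
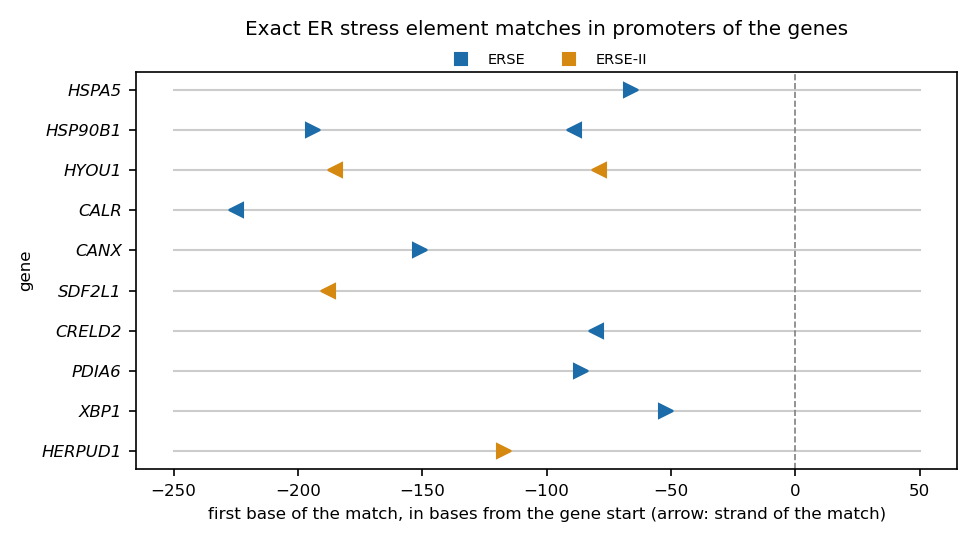
Positions of exact ERSE (blue) and ERSE-II (orange) matches in bases from the start of each gene, with arrows for the strand of the match relative to the gene and grey lines for the stretch searched. The first listed start is used, except for PDIA6, where the second is, and from these starts the matches lie between 225 bases (CALR) and 52 bases (XBP1) upstream. The CANX match lies 9 and 189 bases before 2 other starts of that gene.

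ERSE was found in 7 of the 34 promoters (20.6%), against 25 of 27305 genes in the whole RefSeq set (0.0916%), and ERSE-II in 3 (8.82%) against 19 genes (0.0696%). Several of these genes are among those from which the element was first described, so this share is a property of the list and not independent evidence. All 10 genes with either element were lower in sh-KIF11, and of the other 24 with a promoter 19 were lower, 2 higher and 3 neither. Among the 21 further tested genes with either element, 9 were lower, 4 higher and 8 neither. Across all tested genes 34.7% were lower and 34.4% higher. All of the 10 except CRELD2 had at least 50 FPKM in sh-ctrl (counts scaled to transcript length and library size). At that level 80.1% of all tested genes were lower. The part of the element in these changes was not tested. SERP1, which steadies the translocon during stress, was the ERSE gene outside the list with the largest fall, by 1.27 on the log2 scale (edgeR adjusted p = 2.01e-23). SYNPO, an actin-associated protein, stood at the other end with a log2 fold change of 3.09 (edgeR adjusted p = 1.04e-20). FICD, which modifies the chaperone BiP, and ERO1B, an ER oxidase, both carry ERSE and did not pass the test (log2 fold changes of -0.18 and 0.03). These 4 genes were picked for mention after their values were seen. A match is a run of letters and no measurement of binding.

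The libraries held between 18167773 and 19583282 counts. KIF11 itself had 1976, 2088 and 2039 counts in the control libraries and 1448, 1478 and 1240 in the knockdown libraries, a fall from 116 ± 5.01 to 68.8 ± 5.16 CPM (mean ± SD, n = 3, log2 fold change -0.75, edgeR adjusted p = 4.22e-15). CPM here means counts scaled to library size with TMM factors. The labels do not say that the 3 libraries of a group came from separate cultures. The p-values weigh the difference between groups against the spread between these libraries, which may be only technical. The TMM factors ran from 0.922 to 0.926 in sh-ctrl and from 1.08 to 1.09 in sh-KIF11, and the 20 most counted genes took 9.35% to 9.68% of counts in sh-ctrl against 6.91% to 7.04% in sh-KIF11. All 10 hepatoma marker genes were detected above the filter, and 9 of them were lower in sh-KIF11, where 34.7% of all tested genes were lower. Of 12 markers of blood, endothelial and stromal cells, DCN had no count and PTPRC, CD3E, LUM, COL1A1 and COL1A2 had at most 7 counts in any library. The summed level of the 12 was 2584 to 3079 CPM in sh-ctrl and 709.9 to 828 CPM in sh-KIF11. LYZ made up most of it in both groups, with means of 2613 and 511 CPM, and ACTA2 had 91.9 and 188 CPM. Of the 6 that were tested, LYZ had the lowest log2 fold change (-2.35), and VWF (1.01) and ACTA2 (1.03) had the highest. Whether fewer cells of a kind or less RNA per cell lies behind a lower bulk level cannot be told apart.

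Most genes of the ER folding and entry machinery were lower after KIF11 knockdown. Of the 37 that passed the filter on low counts, 32 were lower, 2 were higher (SEL1L and SEC62) and 3 did not pass the test (DNAJB9, ERN1 and SPCS3) at an adjusted p of 0.05 over 12369 genes. Across all tested genes 34.7% were lower and 34.4% higher, while the 32 were 86.5% of those tested here. The median log2 fold change was -0.53, beside 0.00 over all tested genes. PDIA4, SDF2L1, XBP1 and P4HB fell to less than 1/2 of their sh-ctrl level, and 3.52% of all tested genes were at least 2-fold lower and past the test. Control and knockdown libraries were fully separated for 34 of the 37 genes, as was the case for 71.2% of all tested genes.

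Together the 38 genes took 1.61%, 1.60% and 1.62% of all counts in the controls and 1.13%, 1.12% and 1.11% after knockdown. Their summed level in CPM was 0.593 of that in sh-ctrl. By role, the ratio was 0.469 for the sensors and XBP1, 0.480 for the disulfide isomerases, 0.627 for the chaperones, 0.745 for translocation and 0.822 for degradation. The low ratio of the sensors came from XBP1, which supplied most of the counts of that group.

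Some scaling choices shifted the balance of all genes, so the counts depend on them. With library totals alone, all tested genes split into 6621 higher and 2373 lower, in place of 4254 and 4294, and the median of all genes rose to 0.235 on the log2 scale. The ER genes then split into 24 lower and 5 higher (DNAJB9, ERN1, SPCS3, SEL1L and SEC62), and with upper-quartile scaling into 29 and 2. All tested genes split into 5014 higher and 3563 lower with upper-quartile scaling.

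**Figure D2:**
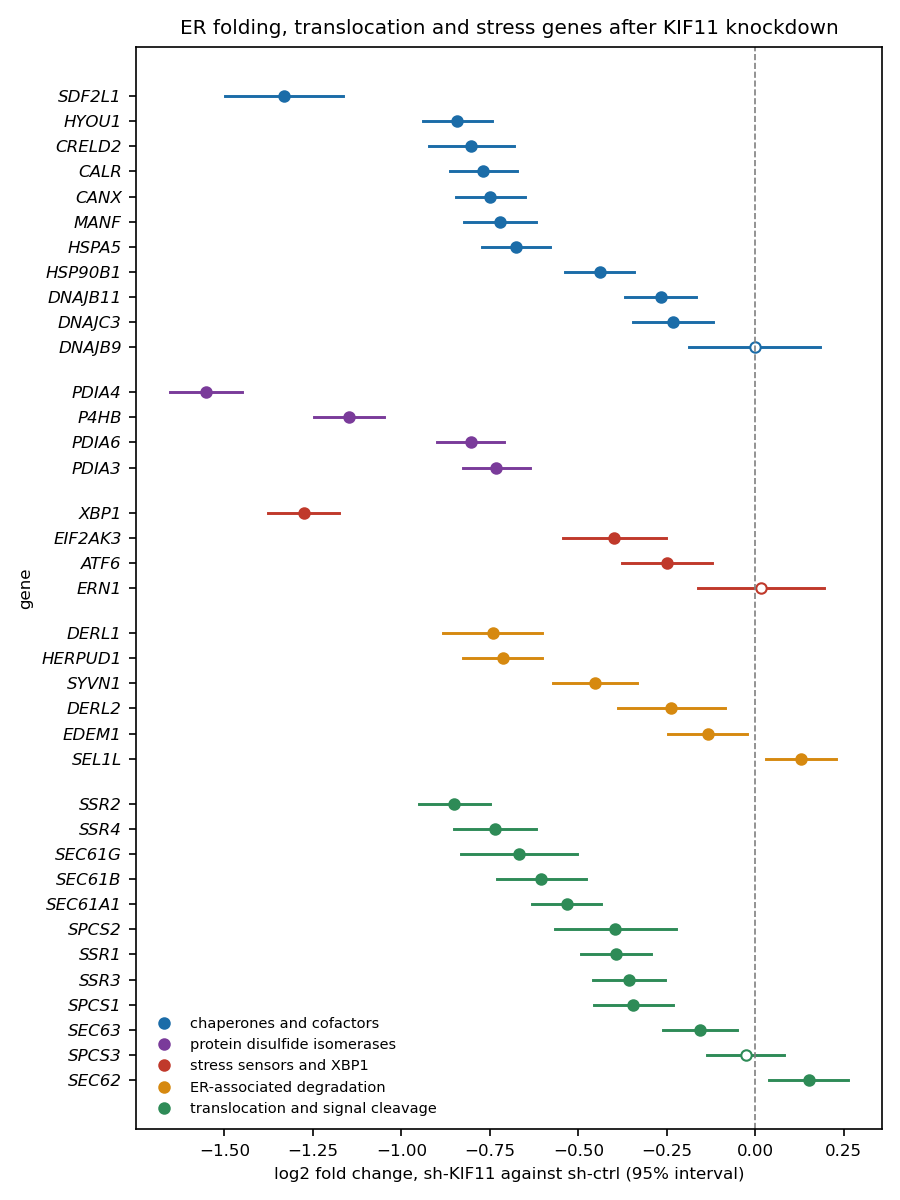
Log2 fold change of sh-KIF11 against sh-ctrl (horizontal axis) with its 95% interval for the 37 tested genes, coloured by role. Filled points passed the edgeR test at an adjusted p of 0.05 and open points (DNAJB9, ERN1, SPCS3) did not; values run from -1.55 for PDIA4 to 0.15 for SEC62.

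Among the chaperones, 10 of 11 were lower and none was higher, with a median log2 fold change of -0.72. The share of lower genes was 34.7% over all tested genes and 80.1% over those with at least 50 FPKM in sh-ctrl. HSPA5 encodes BiP, the main Hsp70 chaperone of the ER, which also holds the stress sensors inactive. It had 29259, 29247 and 29223 counts in the control libraries and 20970, 21155 and 20863 in the knockdown libraries. Every knockdown library lay below every control library, and the mean fell from 1664 ± 59.1 to 1042 ± 18.2 CPM (n = 3, log2 fold change -0.68, edgeR adjusted p = 3.02e-16). HSP90B1 encodes GRP94, the Hsp90 of the ER. Its counts were 21283, 22990 and 21589 in the control libraries and 18504, 19743 and 17492 in the knockdown libraries, and the scaled level fell from 1249 ± 48.1 to 921 ± 33.5 CPM, the smaller of these 2 changes (log2 fold change -0.44, edgeR adjusted p = 1.22e-10).

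SDF2L1, a stress-inducible partner of ER Hsp40 proteins, changed most in this group. Its counts were 994, 892 and 811 in the control libraries and 443, 444 and 341 in the knockdown libraries. The fall was 60.3% (51.1 ± 4.10 to 20.3 ± 2.60 CPM, edgeR adjusted p = 7.17e-18). HYOU1, a large Hsp70 relative that recharges BiP with nucleotide, had 10875, 10795 and 9476 counts against 6775, 6754 and 6371, and its level was 44.2% lower (589.8 ± 25.2 to 329 ± 7.68 CPM, edgeR adjusted p = 4.89e-19). CRELD2, a secreted ER stress protein, had 1609, 1570 and 1383 counts against 1023, 1020 and 954, which came to 42.7% less (86.4 ± 4.17 to 49.5 ± 1.33 CPM, edgeR adjusted p = 1.5e-15). The gene overlaps ALG12 on the opposite strand, which was lower by 0.33 on the log2 scale. In SDF2L1, HYOU1 and CRELD2 alike the 2 groups did not overlap, as in 71.2% of all tested genes.

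The lectin chaperones CALR and CANX, which hold glycoproteins during folding, fell by 0.77 and 0.75 on the log2 scale, and MANF, a secreted ER stress factor, fell by 0.72. The J-domain cofactors of BiP moved less. DNAJB11 fell by 0.27 (edgeR adjusted p = 9.36e-06) and DNAJC3, which also inhibits PERK, by 0.23 (edgeR adjusted p = 0.00032). Both lost the call with library totals and in limma on the FPKM table. DNAJB9, which returns BiP to IRE1 and is a classical target of spliced XBP1, had 450, 387 and 522 counts in the control libraries and 490, 534 and 535 in the knockdown libraries. Its scaled level was 25.9 ± 4.77 CPM in sh-ctrl and 25.8 ± 1.35 CPM in sh-KIF11 (log2 fold change 0.00, 95% interval -0.19 to 0.18, edgeR adjusted p = 0.983). With library totals DNAJB9 passed the test as higher (0.23, edgeR adjusted p = 0.0225).

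All 4 protein disulfide isomerases, the enzymes that form and reshuffle disulfide bonds, were lower. Each had at least 50 FPKM in sh-ctrl, a level at which 80.1% of all tested genes were lower. PDIA4 had 17140, 17393 and 16580 counts in the control libraries and 7133, 6706 and 6162 in the knockdown libraries. Its level fell by 65.9%, from 969 ± 11.6 to 331 ± 22.3 CPM, and only 0.978% of all tested genes ranked as low or lower by fold change (log2 fold change -1.55, SE 0.0505, edgeR adjusted p = 1.54e-27). P4HB encodes PDI itself, which is also the beta subunit of collagen prolyl 4-hydroxylase. Its counts were 48863, 48295 and 42717 against 24735, 24077 and 23484, a fall of 54.9% (2649 ± 107 to 1196 ± 35.1 CPM, edgeR adjusted p = 1.56e-23). PDIA6, an isomerase that associates with BiP, had 18497, 19655 and 18217 counts against 12437, 12780 and 11810, and was 42.7% lower (1069 ± 27.6 to 612 ± 11.5 CPM, edgeR adjusted p = 8.86e-19). PDIA3, the isomerase that works with CALR and CANX, fell by 0.73. No library of one group reached into the range of the other for any of the 4, as for 71.2% of all tested genes.

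The stress sensor genes did not move alike. XBP1 mRNA had 14724, 15450 and 14590 counts in the control libraries and 7511, 7170 and 6511 in the knockdown libraries. The knockdown libraries all lay far below the controls, and the level fell by 58.7% (849 ± 20.5 to 350.3 ± 22.4 CPM, log2 fold change -1.28, edgeR adjusted p = 1.21e-24). ERN1, whose product splices XBP1 mRNA, had 339, 334 and 281 counts in the control libraries and 368, 388 and 349 in the knockdown libraries. After scaling these were 18.1 ± 1.24 and 18.3 ± 0.529 CPM with overlapping libraries (log2 fold change 0.02, 95% interval -0.16 to 0.19, edgeR adjusted p = 0.885). With library totals ERN1 passed the test as higher (0.25, edgeR adjusted p = 0.0122). EIF2AK3 had 825, 873 and 803 counts against 693, 814 and 670 and fell by 0.40 on the log2 scale (47.4 ± 1.07 to 35.9 ± 2.94 CPM, edgeR adjusted p = 5.65e-06). ATF6, a membrane-bound factor freed by cleavage in the Golgi, had 1130, 1185 and 1167 counts against 1138, 1204 and 1018. Its raw counts overlapped and its scaled levels did not (66.1 ± 2.91 and 55.5 ± 3.44 CPM). The log2 fold change of ATF6 was -0.25 (edgeR adjusted p = 0.000545), and the call was lost with library totals (edgeR adjusted p = 0.789) and in both limma fits on FPKM (limma adjusted p = 0.259 and 0.254).

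**Figure D3:**
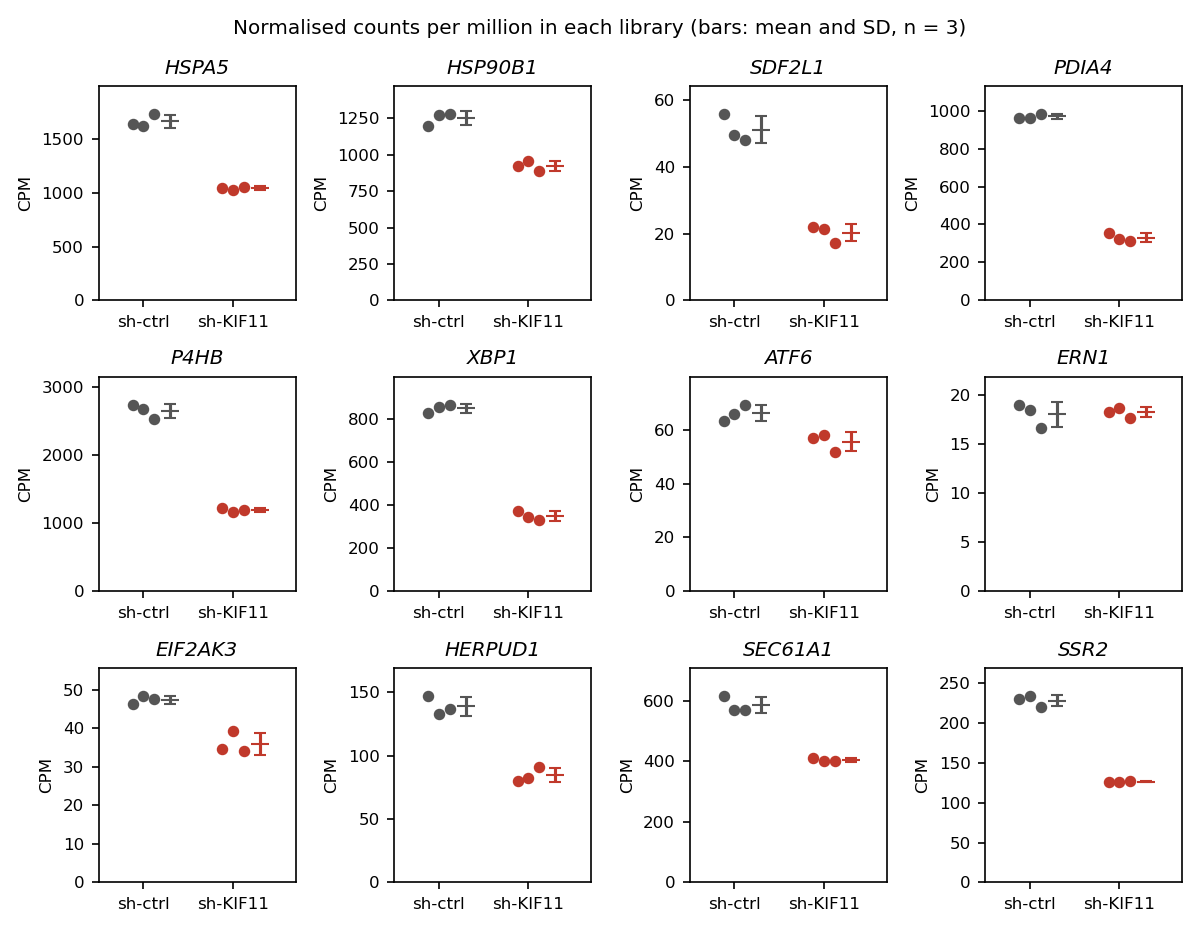
Scaled level in CPM (vertical axis from 0, own scale in each panel) of 12 genes in each sh-ctrl (grey) and sh-KIF11 (red) library, with the mean and SD of 3 libraries beside the points. The groups overlap for ERN1 (18.1 and 18.3 CPM on average) and lie apart for the other 11 genes, as for 71.2% of all tested genes.

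Of the 7 degradation genes, 5 were lower, 1 was higher and 1 could not be tested. The shares over all tested genes were 34.7% lower and 34.4% higher. DERL1, a channel protein of retrotranslocation, had 1014, 946 and 949 counts in the control libraries and 655, 690 and 649 in the knockdown libraries (55.2 ± 2.40 to 32.96 ± 0.348 CPM, log2 fold change -0.74, edgeR adjusted p = 1.25e-12). HERPUD1, a stress-induced scaffold of the ubiquitin ligase, had 2622, 2393 and 2306 counts against 1612, 1704 and 1797. The libraries did not overlap and the level was 39.0% lower (139 ± 7.44 to 84.6 ± 5.73 CPM, edgeR adjusted p = 7.32e-15). SYVN1 encodes HRD1, the ligase itself. It had 1634, 1757 and 1391 counts against 1324, 1380 and 1293, a fall of 27.0% (90.5 ± 7.54 to 66.1 ± 0.559 CPM, edgeR adjusted p = 7.58e-09).

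SEL1L, the partner that stabilises HRD1, had 2751, 2803 and 2604 counts in the control libraries and 3462, 3499 and 3260 after knockdown. Its scaled level was higher without overlap, with a log2 fold change of 0.13 (154.6 ± 0.604 to 169 ± 3.63 CPM, edgeR adjusted p = 0.0196). That call was lost without sh-KIF11 replicate 1 or without replicate 2 (edgeR adjusted p = 0.0897 and 0.0628). DERL2, a relative of DERL1, fell by 0.24 (edgeR adjusted p = 0.00492) but missed the threshold with upper-quartile scaling, library totals and limma on FPKM. EDEM1, a lectin that hands misfolded glycoproteins to the ligase, fell by 0.13 (edgeR adjusted p = 0.0302). EDEM1 lost the call under 8 of the 15 alternatives, its log2 fold change turning to 0.10 with library totals. Among these 8 were the fits without sh-ctrl replicate 1, sh-KIF11 replicate 1 or sh-KIF11 replicate 2 (edgeR adjusted p = 0.0604, 0.118 and 0.0611). DERL3 had no count in any library except 1 count in sh-KIF11 replicate 2, so it was at the detection limit in both groups.

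Translocation and signal cleavage genes were lower in 10 of 12 cases, with a median log2 fold change of -0.40. Over all tested genes 34.7% were lower and the median was 0.00. SEC61A1 encodes the pore of the channel. Its counts were 10989, 10285 and 9632 in the control libraries and 8247, 8301 and 7924 in the knockdown libraries, and the level fell by 30.9% without overlap (585.6 ± 26.5 to 405 ± 5.57 CPM, edgeR adjusted p = 5.49e-13). The 2 small subunits were lower as well. SEC61G had 622, 631 and 595 counts against 403, 519 and 413 (35.0 ± 0.198 to 22.03 ± 2.67 CPM, log2 fold change -0.67, edgeR adjusted p = 1.68e-09), and SEC61B fell by 0.60.

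The translocon-associated protein complex sits beside the channel and helps certain signal sequences to enter. SSR2 had 4111, 4221 and 3713 counts in the control libraries and 2535, 2614 and 2501 in the knockdown libraries, a fall of 44.6% (228 ± 7.24 to 126.5 ± 0.288 CPM, edgeR adjusted p = 7.06e-19). SSR4 had 1510, 1538 and 1483 counts against 1057, 1063 and 1002, and was 39.9% lower (85.9 ± 1.71 to 51.6 ± 0.964 CPM, edgeR adjusted p = 9.13e-15). SSR1 and SSR3, the other subunits, fell by 0.39 and 0.36. In the signal peptidase complex, SPCS1 fell by 0.34 and SPCS2 by 0.40, while SPCS3, an accessory subunit needed for activity, had a log2 fold change of -0.03 (95% interval -0.14 to 0.08, edgeR adjusted p = 0.667). SPCS3 too was called higher with library totals (0.20, edgeR adjusted p = 0.000887). One library set the size of the SPCS2 change, since sh-ctrl replicate 3 had 1246 counts where the other controls had 938 and 908, and without it the log2 fold change was -0.20 (edgeR adjusted p = 0.0037). SPCS1 lost the call with library totals, and SPCS2 with library totals and limma on FPKM.

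SEC62 and SEC63 bring proteins with weak signal sequences to the channel after synthesis, and they moved in opposite directions. SEC62 had 1387, 1506 and 1382 counts in the control libraries and 1831, 1918 and 1695 after knockdown. It was higher with a log2 fold change of 0.15 (edgeR adjusted p = 0.0146), a call that was lost without sh-ctrl replicate 1 (0.0612), sh-KIF11 replicate 1 (0.0566) or sh-KIF11 replicate 2 (0.0859). SEC63 fell by 0.16 (edgeR adjusted p = 0.00725), a call lost with upper-quartile scaling and limma on FPKM, and with library totals its log2 fold change was 0.07.

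The size of the change went with the level of the gene in control cells. Levels were compared between genes as FPKM, which is scaled to transcript length. Over the 37 tested genes, Spearman's rho between the mean FPKM in sh-ctrl and the log2 fold change was -0.639, and Pearson's r with log2 FPKM was -0.64. Genes share libraries and are not independent replicates. The same relation ran through the whole table, with a rho of -0.512 over 12369 genes. The ratio of counts to FPKM, which rises with transcript length, had a rho of 0.281 with the log2 fold change over 12293 genes. Level and length were not separated here, and the sh-ctrl libraries supply both the level and the baseline of the change. Of the 21 ER genes with at least 50 FPKM in sh-ctrl all were lower, with a median log2 fold change of -0.72, but among all 1098 genes at that level 80.1% were lower and the median was -0.40. Of the 16 ER genes under 50 FPKM 11 were lower, with a median of -0.23, and among all 8873 genes from 1 to under 50 FPKM 36.4% were lower and the median was -0.02. The limit of 50 FPKM was set after the values were seen, and the part of gene level in the lower counts of the ER genes was not tested.

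**Figure D4:**
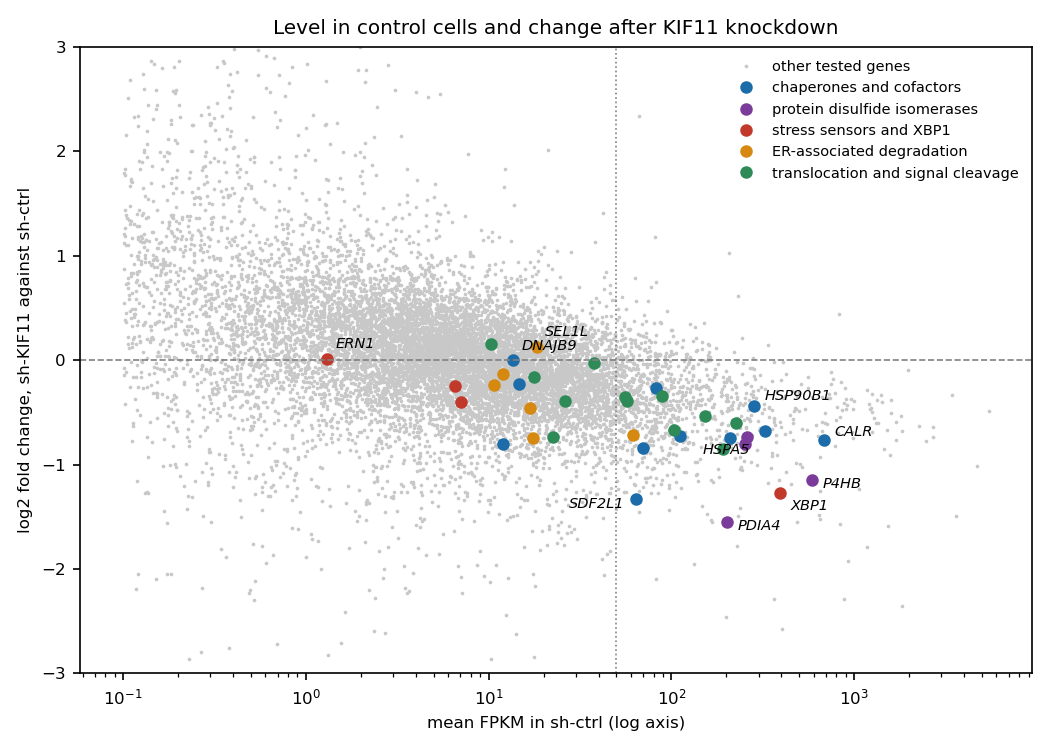
Mean FPKM in sh-ctrl (horizontal, log axis) against the log2 fold change of sh-KIF11 (vertical) for the 37 ER genes, coloured by role, over all tested genes with at least 0.1 FPKM and a change within 3 log2 units (grey). The dotted line stands at 50 FPKM, and all 21 ER genes to its right lie below 0.

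Genes of the same pathways outside the list were examined by role. The shares to set beside their counts are those of all tested genes, 34.7% lower and 34.4% higher. Oligosaccharyltransferase and glucose-trimming genes, which attach N-glycans and read them, were lower in 14 of 18 tested cases and higher in 3 (median log2 fold change -0.50). RPN1 and MOGS fell by 0.80 and 0.78, and TUSC3 (0.95) and CLGN (0.43) were higher. Of 18 further degradation genes 13 were lower and 4 higher (median -0.30). UBE2J1 fell by 0.62, while EDEM3 (0.38) and MARCH6 (0.21) were higher. EDEM2 passed the test with a log2 fold change of -1.11 on only 22 to 34 counts in the control libraries and 11 to 20 after knockdown. In the FPKM table it stood at 30.0 and 24.2 FPKM, so the 2 tables disagree on its level and the size of its change is uncertain. Of 17 further ER redox genes 10 were lower and 2 higher (median -0.25). TXNDC11 and PDIA5 fell by 0.90 and 0.78, and QSOX1, a sulfhydryl oxidase of the secretory route, rose with a log2 fold change of 1.14, as did the thioredoxin-like TMX3 with 0.37.

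Targeting and membrane insertion genes, which include the signal recognition particle and the ER membrane complex, were lower in 15 of 26 cases and higher in 6 (median -0.20). SEC11C, a catalytic subunit of signal peptidase, fell by 0.98 and EMC9 by 0.84, and EMC2 (0.45) and SRP9 (0.35) were higher. Genes that process the sensors or act with them were lower in 6 of 11 cases and higher in 3 (median -0.25). These were 54.5% and 27.3% of a short list, beside 34.7% and 34.4% of all tested genes, and the difference was not tested. In that group WFS1, an ER membrane protein that restrains ATF6, fell by 1.28, and CREB3L3, a liver relative of ATF6, by 0.63. The higher ones included the site-2 protease MBTPS2 (0.25), which frees ATF6, and the cell death gene BBC3 (0.43).

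Of 9 tested output genes of PERK and ATF4, 4 were higher and 3 lower, with a median log2 fold change of 0.08. These shares of 44.4% and 33.3% lie near those of all tested genes (34.4% and 34.7%), so the counts say nothing particular about the list. ATF4 itself fell from 509.9 to 322 CPM (log2 fold change -0.66, edgeR adjusted p = 8.16e-16), and TRIB3, a pseudokinase induced by ATF4, fell by 1.03. SESN2, a stress-induced regulator of mTORC1, rose with a log2 fold change of 0.86 (edgeR adjusted p = 1.09e-16). PPP1R15A, the phosphatase subunit that ends the PERK signal, rose with 0.80 (edgeR adjusted p = 1.16e-11).

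The deposited annotation attached the KEGG term for protein processing in the ER to 164 genes, 31 of them from the list. Of the other 133 genes 120 were tested, and 63 were lower and 24 higher (median -0.20). These were 52.5% and 20% of those tested, beside 34.7% and 34.4% of all tested genes. Some of the 120, WFS1 among them, were already counted in the lists above. CRYAA (-1.72) and WFS1 (-1.28) were lowest and CAPN2 was highest (2.78), followed by CRYAB, which rose from 0.911 to 3.18 CPM. CRYAA had only 3.59 CPM in sh-ctrl and 1.11 CPM in sh-KIF11, with overlapping libraries. With library totals alone the same 120 genes split into 39 lower and 50 higher, and all 12369 tested genes into 2373 lower and 6621 higher. Of the 14 other genes with the KEGG term for protein export 9 were lower and 1, SRP9, was higher (median -0.19), and SEC11C and IMMP1L had the largest falls, by 0.98 and 0.54. SRP9 and SEC11C were also in the list of targeting and insertion genes.

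**Figure D5:**
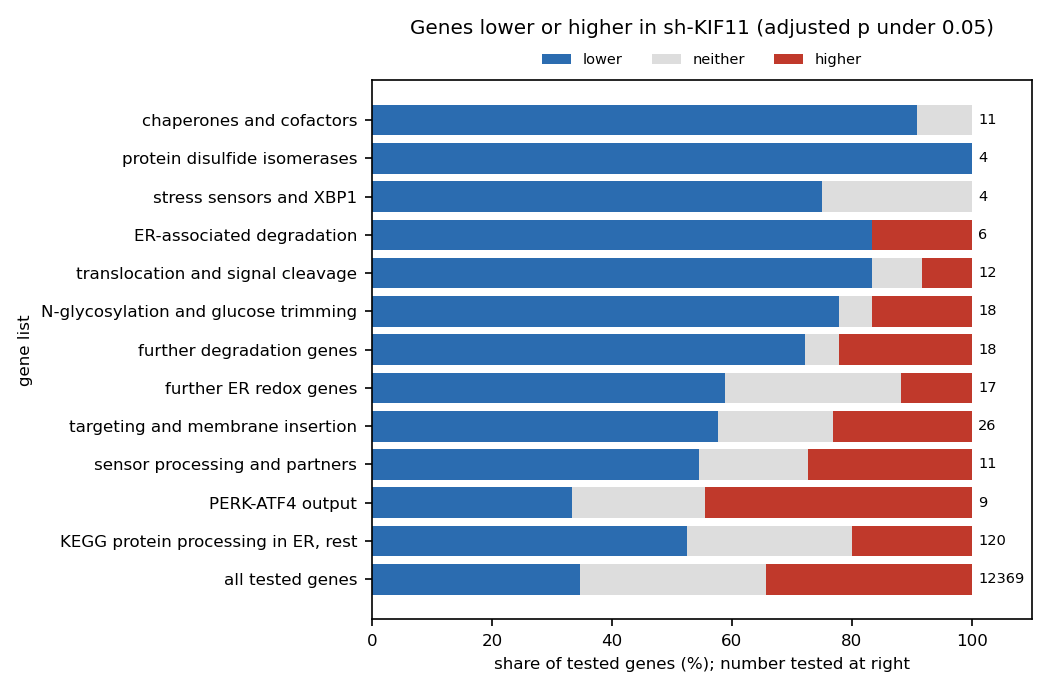
Share of tested genes (horizontal axis, %) that were lower (blue), neither (grey) or higher (red) in sh-KIF11 at an edgeR adjusted p of 0.05, for the 5 roles, the further pathway lists and all tested genes. The share of lower genes runs from 100% of the 4 disulfide isomerases to 33.3% of the PERK and ATF4 output genes, next to 34.7% of all tested genes.

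The proteins that pass through this machinery were examined as well. Of 15 secreted liver proteins 14 were lower and none was higher, with a median log2 fold change of -1.49. Across all tested genes 34.7% were lower. Most of the 15 stood at 50 FPKM or more in sh-ctrl, and 80.1% of all tested genes at that level were lower, with a median of -0.40. TF, the iron carrier transferrin, fell by 2.28 and APOA1, the main protein of high-density lipoprotein, by 1.92. Of 10 hepatoma identity genes, some of which are secreted proteins too, 9 were lower (median -0.93), among them APOA1 and APOH, which fell by 1.92 and 1.79. These levels fell in the same libraries as the ER genes, and their part in the change of the ER genes was not tested.

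Overlapping and duplicated genes limit some values. On GRCh38 (GENCODE 29), 27 of the 38 genes overlap a gene on the opposite strand and 10 overlap one on the same strand, and the strand setting of the counting is not given in the sources used here. For 6 genes, PDIA3, XBP1, SEC63, SSR1, SSR4 and SPCS2, the annotation also lists pseudogenes of the same name, to which reads could be assigned. XBP1 (chr22:28794555-28800597, minus strand), HSPA5 (chr9:125234853-125241330, minus strand), PDIA4 (chr7:149003062-149028641, minus strand) and SDF2L1 (chr22:21642261-21644298, plus strand) overlap no other annotated gene.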

How the data were processed

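HepG2 mRNA was measured in 3 sh-ctrl and 3 sh-KIF11 libraries, grouped by the sample labels. The knockdown columns are named only shRNA and were taken as sh-KIF11, the one shRNA besides the control. Poly(A) RNA was prepared with a stranded kit and read as paired ends. The submitters' processing notes name bcl2fastq 1.8.4, Trimmomatic, HISAT2 2.1.0, HTSeq 0.9.1, Cufflinks 2.2.1, DESeq and the builds GRCh38 and hg38. The authors deposited raw counts per gene and a second table of FPKM values, scaled by the authors to transcript length and library size, both with annotation columns such as KEGG terms.

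Counts were tested in R 4.3.3 with edgeR 4.0.16 (TMM factors, filterByExpr, quasi-likelihood test, group as the only term). The filter kept 12369 genes and left out 7661. The common dispersion was 0.00237, a spread between replicates of 4.87%. The Benjamini-Hochberg adjustment ran over all tested genes, with a threshold of 0.05. Depth was 18167773 to 19583282 counts per library, where 3 counts come to between 0.145 and 0.178 CPM. Intervals are 95% and rest on the spread between libraries. An exact permutation test of 3 against 3 libraries cannot go below 0.1 and was not used for calls. The code was tested on simulated counts. Alternatives were RLE, upper-quartile and library-total scaling, no filter, at least 10 counts in every library, a replicate block, each library left out, DESeq2 1.42.0, and limma 3.58.1 on log2(FPKM + 1) and log2(FPKM + 0.1).

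The members and lists were chosen with earlier results of these data known. Given with the counts of each library were the 4 stress sensor genes, HSPA5, HSP90B1, HERPUD1, SEC61A1, the 3 tested genes of each role with the largest change, and any gene that failed the filter. DNAJB9, SEL1L, SEC62 and SPCS2 were added after their values were seen. Other genes appear with their change, and each list with its counts and at most 2 genes at either end. Protein sequences were not used here. The value of 1 marker gene is not reported here.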

Additional observations from a re-analysis of the deposited data

How the results depend on the processing

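Of the 34 ER genes called, 24 kept their direction and their call under all 15 alternatives, and all 24 were lower. The 10 others were ATF6, DERL2, DNAJB11, DNAJC3, EDEM1, SEC62, SEC63, SEL1L, SPCS1 and SPCS2. Between 27 (limma on FPKM) and 34 ER genes were called. How many of all called genes kept their call under every alternative was not counted. In the main fit 34.7% of all tested genes were lower and 34.4% higher. With library totals, all genes split into 6621 higher and 2373 lower, 5 ER genes were higher (1 chaperone, 1 sensor gene and 2 translocation genes among them), and 3 degradation genes were lower. Limma on log2(FPKM + 1) and log2(FPKM + 0.1) gave 2596 and 2597 lower genes of all 12369 tested, and 5635 and 5666 higher. The count of 3 lower degradation genes also held with upper-quartile scaling and in both limma fits. Leaving out each library gave 0 to 2 ER genes higher, 0 to 1 of degradation and 0 to 1 of translocation.

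Some changes switched sign, and with library totals DNAJB9 (0.23), ERN1 (0.25) and SPCS3 (0.20) passed the threshold as higher. DNAJB9 was 0.077 with upper-quartile scaling, 0.024 with at least 10 counts, and 0.15 and 0.16 in the limma fits. EDEM1 was 0.10 with library totals and 0.017 and 0.019 in the limma fits, and SEC63 was 0.074 with library totals. SPCS3 was 0.051 with upper-quartile scaling and 0.10 and 0.11 in the limma fits. With each library left out, DNAJB9 ran from -0.12 to 0.14, ERN1 from -0.041 to 0.058 and SPCS3 from -0.064 to 0.035. The causes were not tested beyond the shift of all genes with the scaling.

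The replicate block called 34 ER genes (32 lower and 2 higher), and among all 12369 tested genes 4311 lower and 4296 higher. In that fit DNAJB9 had a log2 fold change of 0.0055. Samples with the same number showed no shared deviation (correlations of 0.03, -0.0185 and -0.00253). With 3 libraries in each group this cannot settle whether the numbers pair the samples, and the labels do not say. At this depth, changes of DERL3 were not detectable.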
